A study of Mus musculus with 8 samples.

Results

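The 10 genes described here encode products of mesenchymal cells, the loose connective-tissue cells that build and bind extracellular matrix. They are Postn, Lox, Ogn, Dcn, Lum, Fn1, Eln, Fbn1, Thy1 and Pdgfra. They were taken by symbol from a table of 20215 genes, and all 10 were found. RNA was sequenced in mouse E14 embryonic stem cells (ESCs) and in embryoid bodies (EBs), the aggregates that ESCs form when they differentiate without leukemia inhibitory factor, here begun as hanging drops and collected at weeks 1, 2 and 3. At each of these 4 stages there was 1 wild-type (WT) library and 1 library labelled as a knockout (KO) of Uhrf1, also called NP95, the protein that brings DNA methylation upkeep to newly copied CpG sites. The 8 libraries thus form 8 groups of 1, with no replicate, and all libraries of a genotype came from a single ESC line. The ESCs were kept on gelatin or on a coat of mouse embryonic fibroblasts, which make many of these proteins themselves, and the labels do not say which was used.

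Uhrf1 itself stood at an RPKM of 45.2 in the library labelled KO against 78.8 in WT in ESCs, at 27.1 against 43.8 at week 1, at 34.6 against 36.8 at week 2 and at 31.0 against 41.0 at week 3. RPKM is the read count of a gene divided by the length of its transcript and by the mapped reads of the library. It thus allows for length and depth alone, and other scalings of the libraries, given below, moved some calls. Uhrf1 RNA was therefore still present in every KO library, at 57.4 to 94.1% of WT, and a value for the whole gene cannot show whether a deleted part is missing. KO below names the libraries as labelled. Depth, estimated from the smallest steps of the values, ran from 31600000 to 166000000 reads in WT and from 12700000 to 175000000 in KO, and the KO library was the shallower of the pair at all 3 EB stages.

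Mesenchymal matrix is assembled outside the cell in layers. Fibronectin, the product of Fn1, is laid down early and forms fibrils on which other proteins gather. Fibrillin-1, from Fbn1, forms microfibrils, and elastin, from Eln, is deposited on them and tied together by lysyl oxidase, the product of Lox, which also crosslinks collagen. Decorin, lumican and osteoglycin, from Dcn, Lum and Ogn, are small leucine-rich proteoglycans that bind collagen fibrils. Periostin, from Postn, is a matricellular protein, one that links matrix and cells more than it bears load. Thy1 is a lipid-anchored surface glycoprotein of fibroblasts that is also abundant on mouse neurons and T cells, and Pdgfra is a receptor for platelet-derived growth factors that marks mesenchymal cells in many embryonic tissues.

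Since Uhrf1 acts at CpG dinucleotides, the promoters of the members with an entry in the RefSeq promoter set are shown with each CpG in capitals. Postn, Ogn, Fbn1 and Pdgfra had an entry, and Lox, Dcn, Lum, Fn1, Eln and Thy1 did not. Each window runs from 250 bases before to 50 bases after a transcript start in the build GRCm38.p6, 5′ to 3′ on the strand of the gene. The Postn window, for the downstream of its 2 starts, is chr3:54360857-54361156 on the plus strand. That of Ogn is chr13:49607765-49608064 on the plus strand, that of Fbn1 chr2:125506389-125506688 on the minus strand and that of Pdgfra chr5:75152001-75152300 on the plus strand.
Postn: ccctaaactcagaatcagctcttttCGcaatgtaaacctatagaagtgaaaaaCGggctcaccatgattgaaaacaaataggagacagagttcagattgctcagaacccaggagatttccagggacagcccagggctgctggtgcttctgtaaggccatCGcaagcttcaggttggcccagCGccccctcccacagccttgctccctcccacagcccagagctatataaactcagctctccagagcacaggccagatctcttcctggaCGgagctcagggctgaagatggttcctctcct
Ogn: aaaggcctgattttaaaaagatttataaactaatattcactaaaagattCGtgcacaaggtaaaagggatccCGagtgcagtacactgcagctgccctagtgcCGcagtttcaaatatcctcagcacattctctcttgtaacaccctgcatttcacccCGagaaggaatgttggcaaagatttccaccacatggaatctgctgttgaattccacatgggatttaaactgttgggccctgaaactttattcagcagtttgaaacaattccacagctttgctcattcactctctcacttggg
Fbn1: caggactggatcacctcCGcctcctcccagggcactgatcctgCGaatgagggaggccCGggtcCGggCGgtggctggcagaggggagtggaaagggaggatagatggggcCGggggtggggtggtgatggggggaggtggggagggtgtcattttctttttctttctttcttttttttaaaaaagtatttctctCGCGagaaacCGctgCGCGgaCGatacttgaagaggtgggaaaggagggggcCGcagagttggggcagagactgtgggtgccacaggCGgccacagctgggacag
Pdgfra: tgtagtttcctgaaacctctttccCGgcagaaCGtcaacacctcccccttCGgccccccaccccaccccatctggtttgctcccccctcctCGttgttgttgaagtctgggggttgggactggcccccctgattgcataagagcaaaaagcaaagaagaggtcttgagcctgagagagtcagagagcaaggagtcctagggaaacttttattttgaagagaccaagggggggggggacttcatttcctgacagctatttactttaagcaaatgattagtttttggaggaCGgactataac
These windows hold 5 CpG in Postn, 4 in Ogn, 14 in Fbn1 and 5 in Pdgfra, against a median of 7 over 32851 windows. As many CpG or more as in Fbn1 were found in 36.3% of all windows, and as many or more as in Postn and Pdgfra in 62.0%. The letters TATAAA, searched on both strands, begin at position -26 from the start in Postn and at -227 in Ogn, and 13.6% of all windows hold them. They are not in the windows printed for Fbn1 and Pdgfra. Methylation was not measured in these libraries.

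Fn1 (mm9 chr1:71632094-71699774, minus strand) was the most abundant member in ESCs and at week 1 in both genotypes. Its RPKM in WT was 78.5 in ESCs, 139 at week 1, 215 at week 2 and 158 at week 3. In KO it was 52.5, 168, 89.6 and 137 at the same stages. WT thus reached its highest Fn1 level at week 2, the EB stage at which KO was lowest, 2.40-fold below WT (95% interval 2.36 to 2.44). This and all later intervals are exact binomial (Clopper-Pearson) intervals on estimated reads and hold counting error alone, not the spread between cultures, which 1 library per group cannot show. With RNA from whole EBs, fewer cells of a type and less RNA in each cell cannot be told apart.

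Fbn1 (chr2:125126330-125333729, minus strand) was below an RPKM of 1 in ESCs, with 0.516 in WT and 0.286 in KO. Its WT levels were 13.5 at week 1, 14.7 at week 2 and 9.20 at week 3, and its KO levels were 6.77, 11.8 and 15.5. The order of the genotypes turned between these stages. KO was 1.99-fold lower than WT at week 1 (1.87 to 2.13), stood at 0.801 of WT at week 2, within the 1.5-fold limit used for calls, and was 1.68-fold higher at week 3 (1.60 to 1.76).

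Eln (chr5:135179651-135223111, minus strand) came late. Its RPKM in WT was 0.834 in ESCs, 0.210 at week 1, 6.66 at week 2 and 24.9 at week 3. In KO it was 0.623, 0.628, 17.6 and 77.1. Both genotypes were highest at week 3, and KO exceeded WT 2.64-fold at week 2 (2.37 to 2.95) and 3.10-fold at week 3 (2.94 to 3.27). At week 1 both values lay below an RPKM of 1 and no call was made.

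Lox (chr18:52675723-52689521, minus strand) encodes the enzyme that crosslinks elastin. It was below an RPKM of 1 in ESCs and at week 1 in both genotypes, with 0.0951 in WT and 0.215 in KO at week 1, on 19 and 12 estimated reads. At week 2 the levels were 22.7 in WT and 26.2 in KO, a ratio of 1.15 (1.09 to 1.22) that lies within the limit. At week 3 WT stood at 10.9 and KO at 54.9, 5.03-fold higher (4.76 to 5.32). The difference at week 3 thus followed a week at which both genotypes had nearly the same level.

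Ogn (chr13:49703440-49719869, plus strand) had a like course. It was under 0.05 RPKM in ESCs and at week 1 in both genotypes. At week 2 it stood at 16.6 in WT and 24.0 in KO, a ratio of 1.44 (1.33 to 1.56) within the limit. At week 3 it stood at 7.11 in WT and 37.8 in KO, 5.31-fold higher (4.85 to 5.82). Ogn lies within Cenpp, a centromere gene whose RPKM ran from 8.89 to 12.9 over the 8 libraries. The lowest Ogn value was 0.0270, and the part of Cenpp reads in the Ogn values was not tested.

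Dcn (chr10:96942245-96980777, plus strand) rose from 0.0270 in WT ESCs and 0.0515 in KO ESCs to the highest levels of any member. Its WT levels were 1.41 at week 1, 219 at week 2 and 231 at week 3, and its KO levels 5.31, 423 and 381. KO was above WT at all 3 weeks, 3.77-fold at week 1 (2.90 to 4.93), 1.93-fold at week 2 (1.89 to 1.98) and 1.65-fold at week 3 (1.61 to 1.69). At week 1 these levels rest on 113 estimated reads in WT and 119 in KO.

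Lum (chr10:97028135-97035337, plus strand), the neighbour of Dcn, was listed at 0 in WT ESCs and at 0.0027 in KO ESCs, about 1 read. Its WT levels were 1.53, 258 and 155 at weeks 1, 2 and 3, and its KO levels were 9.95, 268 and 142. Lum therefore passed the limit at week 1 alone among the 3 weeks, at 6.52-fold above WT (5.30 to 8.03). The KO to WT ratio was 1.04 at week 2 and 0.916 at week 3, both within the limit.

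Postn (chr3:54165031-54194961, plus strand) was among the earliest to appear. Its RPKM in WT was 0.0253 in ESCs, 23.6 at week 1, 220.1 at week 2 and 72.3 at week 3. In KO it was 0.0844, 77.2, 210.2 and 109.8. KO was 3.27-fold higher at week 1 (3.14 to 3.41), level with WT at week 2 with a ratio of 0.955, and 1.52-fold higher at week 3 (1.48 to 1.56). The value at week 3 sits on the 1.5-fold limit, and with libraries scaled by median ratios, by upper quartile or to an equal RPKM total it fell short of it.

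Thy1 (chr9:43851467-43856662, plus strand) followed another course. Its RPKM was 9.37 in WT ESCs and 6.62 in KO ESCs, and at week 1 it was 0.189 and 0.229, on 15 and 5 estimated reads. At week 2 KO stood at 19.9 and WT at 4.77, 4.18-fold apart (3.61 to 4.84). At week 3 KO stood at 36.3 and WT at 29.2, a ratio of 1.24 (1.15 to 1.34) within the limit. Neurons and T cells also make Thy1. Of 9 neuron markers in the table, 7 were tested at week 2, and 4 were 1.5-fold or more higher in KO and 0 lower. Over all genes tested at that week, 10% were higher and 6.42% lower. The markers had a summed RPKM of 54.9 in KO and 35.5 in WT, and none was at 0. At week 3, 6 of 8 tested were lower in KO and 0 higher, where 7.69% of all genes tested were lower and 7.65% higher. The sums were 72.6 in KO and 178 in WT, while Thy1 was within the limit. The 8 T cell markers summed to between 2.64 and 11.3 RPKM in every library. At week 2, 4 of them were at 0 in WT and 1 in KO, while 3 had an RPKM of 1 or more in each. Those 3 were Lck, at 3.24 in WT and 3.21 in KO, Ptprc, at 3.12 and 1.01, and Cd4, at 1.07 and 1.22. Cd3e, a subunit of the T cell receptor complex, was at 0 in WT and at 0.0755 in KO at that week. The ESC libraries, which may hold fibroblasts of the coat, also had Thy1 above an RPKM of 1. The 7 pluripotent cell markers summed to 3047, 67.1, 132 and 772 RPKM in WT from ESCs to week 3. In KO they summed to 3770, 44.8, 393 and 760. The part of any of these cells in the Thy1 values was not tested.

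Pdgfra (chr5:75548316-75594229, plus strand) was the member whose KO value was above WT at every stage by a similar factor. Its RPKM in WT was 0.508 in ESCs, 8.82 at week 1, 19.6 at week 2 and 17.2 at week 3. In KO it was 0.988, 20.6, 44.9 and 30.3. KO was 2.33-fold higher at week 1 (2.19 to 2.48), 2.29-fold at week 2 (2.19 to 2.38) and 1.76-fold at week 3 (1.68 to 1.84). Both ESC values were below an RPKM of 1, so no call was made there.

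**Figure D1:**
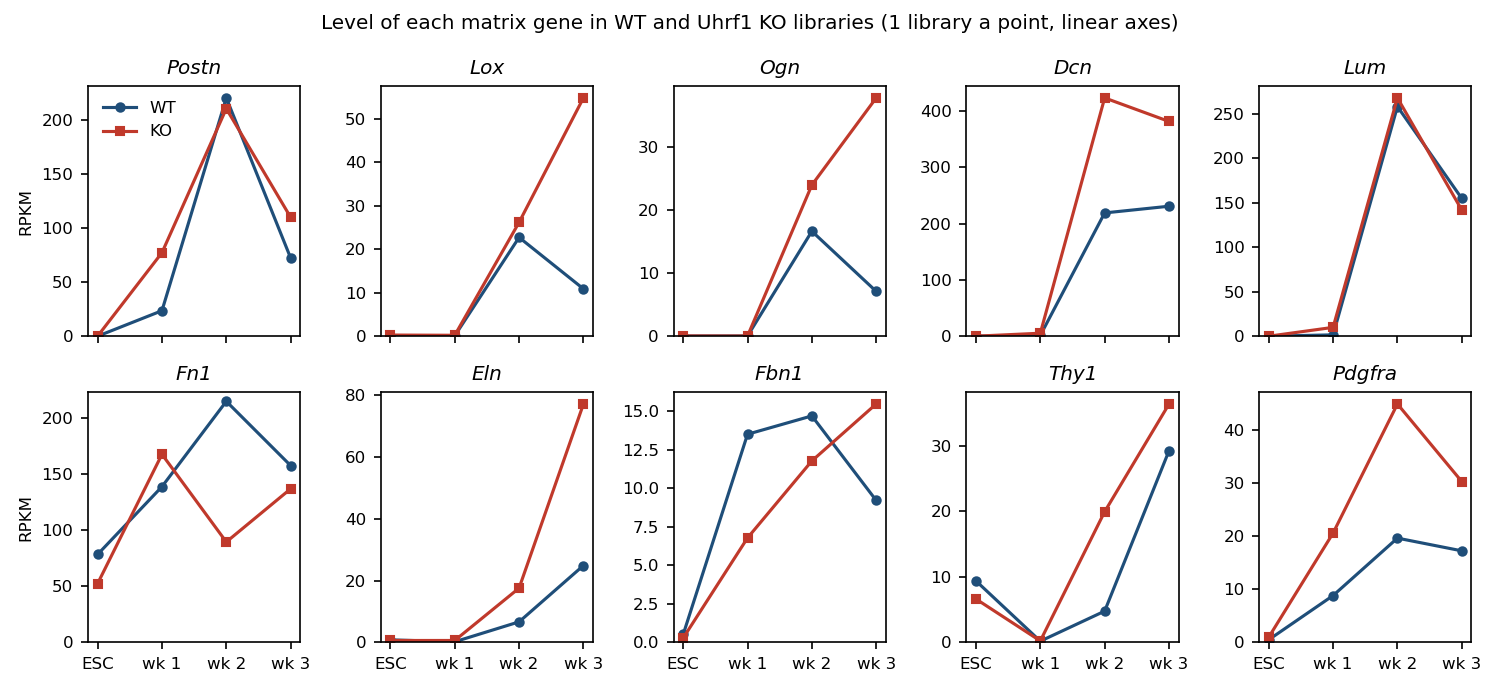
RPKM of each of the 10 genes (linear axes from 0, scaled to each gene) in the WT and KO libraries at the ESC stage and at EB weeks 1, 2 and 3, with 1 point per library and no error bar because each group has 1 library. Lox and Ogn are near 0 until week 1 and part between weeks 2 and 3, Fn1 and Thy1 start above an RPKM of 1 in ESCs, and the KO line of Pdgfra lies above the WT line at all 3 EB weeks.

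At each stage, the members were counted when 1 library of the pair had an RPKM of 1 or more and the values of RPKM + 1 were 1.5-fold or more apart. In ESCs 2 of the 10 members passed the floor, Fn1 and Thy1, and 0 were called higher or lower in KO, where 3.84% of 11053 genes were higher and 2.29% lower. The KO to WT ratio there was 0.669 (0.663 to 0.675) for Fn1 and 0.706 (0.666 to 0.748) for Thy1. Fn1 passed the limit, as lower, under each of the 3 other scalings of the libraries. Fibroblasts also make collagens. Of 9 fibril and associated collagens, 2 in WT ESCs and 3 in KO ESCs had an RPKM of 1 or more, and their sums were 13.8 and 9.75. Col3a1, the chain of collagen III, was at 0.0528 in WT and 0.0766 in KO, and Col1a1, a chain of collagen I, was at 5.80 and 2.49.

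At week 1, 6 of the 10 members passed the floor, each of them with an RPKM of 1 or more in both libraries. Postn, Dcn, Lum and Pdgfra were higher in KO and Fbn1 was lower, while 8.37% of 11569 genes were higher and 6.22% lower. Fn1 had a ratio of 1.21 (1.19 to 1.23), within the limit. Lox, Ogn, Eln and Thy1 were below the floor in both libraries. The median log2 difference in RPKM + 1 was 1.26 over the 6 members tested and 0.01 over all genes tested, and with the 4 members below the floor included it was 0.35. Among markers of muscle, 8 of 9 smooth muscle markers tested were higher in KO, with a summed RPKM of 1121 against 427 in WT. All 8 of 8 cardiac muscle markers were higher, with sums of 6109 and 2044. Of 8 endothelium markers 5 were lower in KO. None of these markers was at 0 in either library, and their part in the members' values was not tested.

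At week 2 all 10 members had an RPKM of 1 or more in both libraries. Dcn, Eln, Thy1 and Pdgfra were higher in KO and Fn1 was lower, where 10% of 12689 genes were higher and 6.42% lower. Postn, Lox, Ogn, Lum and Fbn1 were within the limit. The median log2 difference was 0.35 over the members and 0.05 over all genes tested. At this stage 6 of 7 pluripotent cell markers were higher in KO, with a summed RPKM of 393 against 132 in WT, and 6 of 8 cardiac muscle markers were lower. The smooth muscle markers, with 2 of 9 higher and 0 lower, had sums of 346 and 449. Whether these shifts bear on the members was not tested.

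At week 3 again all 10 were above the floor in both libraries. Postn, Lox, Ogn, Dcn, Eln, Fbn1 and Pdgfra, 7 of 10, were higher in KO and 0 were lower, where 7.65% of 13050 genes were higher and 7.69% lower. Lum, Fn1 and Thy1 were within the limit. The median log2 difference was 0.71 over the members and 0.02 over all genes tested. Scaling to an equal RPKM total left 5 of the 7 above the limit, without Postn and Fbn1, and turned the counts over all genes from 998 higher and 1003 lower into 780 and 1393. Lox, Ogn and Eln, the members with the widest gaps, were above 2-fold. Of 10 parietal endoderm markers 5 were higher in KO, with a summed RPKM of 577 against 368 in WT, and 3 of 9 smooth muscle markers were lower, with sums of 157 and 203. Of 8 cardiac muscle markers 5 were lower and 1 was higher, with sums of 493 and 676, and 6 of 8 neuron markers tested were lower. None of these markers was at 0, and their part was not tested.

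**Figure D2:**
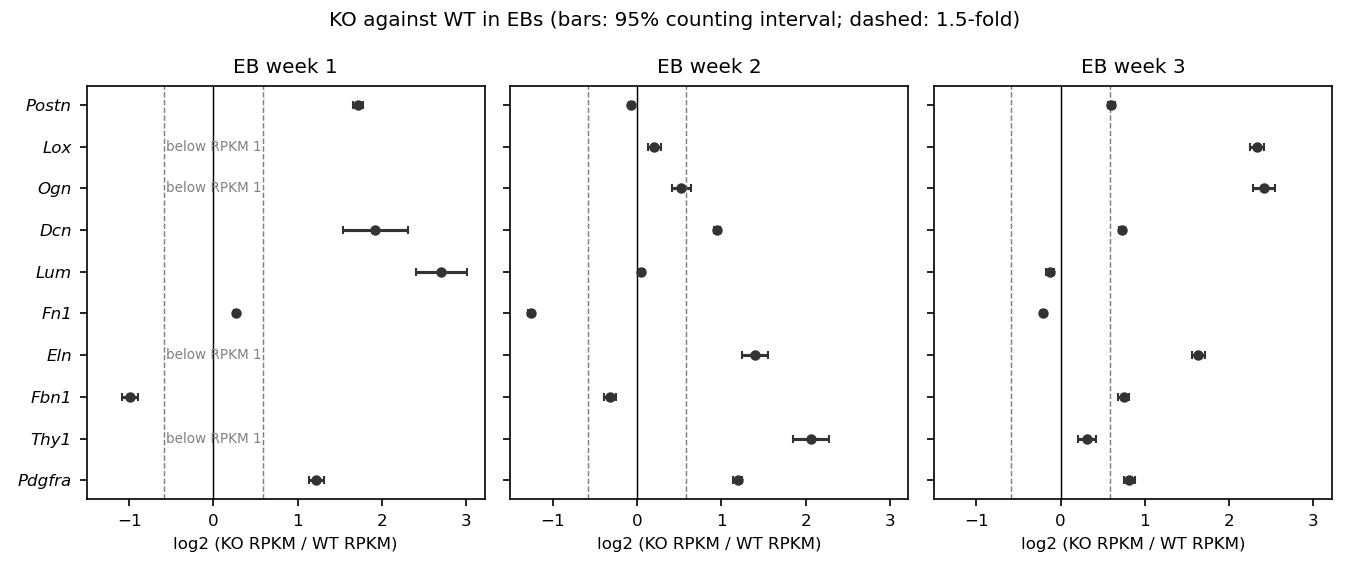
Log2 of the KO to WT ratio of RPKM for each gene at EB weeks 1, 2 and 3, where the bars are 95% intervals (Clopper-Pearson, for counting error alone), the dashed lines mark 1.5-fold, and genes below an RPKM of 1 in both libraries carry no point. Pdgfra and Dcn lie right of the upper line at all 3 weeks, Fbn1 moves from a ratio of 0.502 at week 1 to 1.68 at week 3, and Lox and Ogn reach ratios of 5.03 and 5.31 at week 3.

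Followed along its own course, each genotype built up most of these genes by week 2. Postn, Dcn, Lum, Pdgfra and Fbn1 already differed between the genotypes at week 1. From ESCs to week 1, 7 members passed the floor in WT, of which Postn, Dcn, Lum, Fn1, Fbn1 and Pdgfra rose and Thy1 fell, where 33.7% of 12095 genes rose and 26.8% fell. The same 6 rose and Thy1 fell in KO, where 34% of 12307 genes rose and 27.1% fell. Fbn1 rose 26.1-fold in WT and 23.7-fold in KO, Pdgfra 17.4-fold and 20.8-fold, and Fn1 1.77-fold and 3.20-fold. Thy1 was 49.6-fold lower than in ESCs in WT (29.97 to 88.6) and 28.9-fold lower in KO (12.5 to 90.1). The KO and WT courses each use their own ESC library.

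From week 1 to week 2, 9 of 10 members rose in WT, where 21.3% of 12260 genes rose and 10% fell, and Fbn1 stayed within the limit. In KO 9 rose and Fn1 fell, where 21.2% of 12702 genes rose and 7.31% fell. Proteoglycans and periostin made up most of the gain. Dcn rose 156-fold in WT (129 to 189) and 79.8-fold in KO (66.4 to 96.1), and Lum rose 169-fold and 27.0-fold, from a higher level at week 1 in KO. Lox rose 239-fold in WT (156 to 406) and 122-fold in KO (70.9 to 241). Fn1 rose 1.55-fold in WT and was 1.87-fold lower in KO (1.83 to 1.91). The summed RPKM of the 10 genes went from 188 to 998 in WT and from 289 to 1136 in KO.

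From week 2 to week 3 the genotypes went different ways in some members and the same way in others. In WT Eln and Thy1 rose and Postn, Lox, Ogn, Lum and Fbn1 fell, where 13.2% of 12951 genes rose and 10.1% fell. In KO Lox, Ogn, Fn1, Eln and Thy1 rose and Postn and Lum fell, where 7.19% of 12908 genes rose and 7.31% fell. Lox was 2.09-fold lower at week 3 in WT (1.97 to 2.21) and 2.09-fold higher in KO (1.99 to 2.20). Ogn was 2.34-fold lower in WT (2.13 to 2.57) and 1.58-fold higher in KO (1.46 to 1.70). Both genes thus moved in opposite directions in the 2 genotypes, a difference that could not be tested with 1 library each. Fn1 had a ratio of 0.733 in WT, within the limit, and rose 1.53-fold in KO (1.497 to 1.562), while Fbn1 was 1.60-fold lower in WT (1.53 to 1.66) and had a ratio of 1.31 in KO, within the limit.

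Eln, Thy1, Postn and Lum each passed the limit in the same direction in both genotypes. Eln rose 3.74-fold in WT (3.40 to 4.11) and 4.39-fold in KO (4.07 to 4.73), so that its gap at week 3 carried on from week 2. Postn was 3.05-fold lower in WT (2.98 to 3.11) and 1.91-fold lower in KO (1.87 to 1.96), and Lum 1.67-fold and 1.89-fold lower. Thy1 rose 6.12-fold in WT (5.37 to 6.99) and 1.82-fold in KO (1.65 to 2.01), which brought the genotypes together. Dcn and Pdgfra stayed within the limit in both. Between week 1 and week 3, 8 of 10 members rose in WT and 0 fell, where 23.7% of genes rose and 8.49% fell, and 7 rose and 0 fell in KO, where 21.4% rose and 8.64% fell. From week 2 to week 3 the summed RPKM of the members went from 998 to 714 in WT and from 1136 to 1022 in KO.

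**Figure D3:**
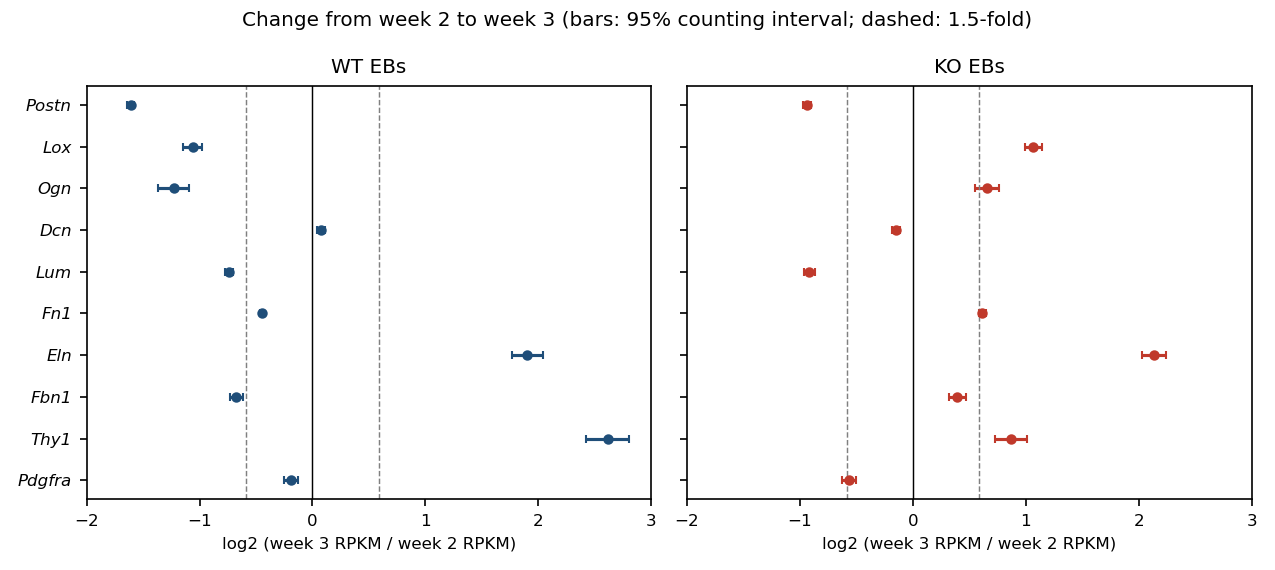
Log2 of the ratio of RPKM at week 3 to that at week 2 for each gene, with WT and KO EBs in separate panels, 95% counting intervals as bars and dashed lines at 1.5-fold. Lox and Ogn lie below zero in WT and above it in KO, Eln and Thy1 lie above zero in both, and Postn and Lum lie below zero in both. The KO point of Pdgfra, a ratio of 0.675, lies close to the lower line and within the limit on RPKM + 1.

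A single model over all 8 libraries, with a term for stage and a term for genotype, was fitted with limma to log2(RPKM + 1) of 13249 genes. Its residual comes from how the genotype difference varies between stages, which are not replicates. For genotype, 0 of the 10 members and 0 of 13249 genes passed an adjusted p of 0.05, that is 0% in either direction, while 1984 genes and 3 members had an unadjusted p under 0.05. Pdgfra was higher in KO by 0.87 on the log2 scale (SE 0.15, limma adjusted p = 0.12) and above WT at 4 of 4 stages. Dcn was higher by 0.77 (SE 0.22, limma adjusted p = 0.23) and also above WT at 4 of 4. Eln was higher by 0.78 (SE 0.31, limma adjusted p = 0.33) and above WT at 3 of 4. The ESC values of these 3 members were all below an RPKM of 1. Those of Dcn rest on 16 estimated reads in KO and 8 in WT, with a ratio of 1.91 (0.768 to 5.13). With a pseudocount of 0.1, 5 members had an unadjusted p under 0.05, and without week 2 the count was 2. The unadjusted limma p of Eln, 0.047 with all stages, was 0.067 without week 1, 0.14 without week 2 and 0.15 without week 3, and 0.010 without ESCs. The median genotype term was 0.63 over the members and 0.04 over all genes. The genotype terms of Fn1 and Fbn1 were negative, at -0.44 and -0.19.

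For the 3 EB stages against ESCs, limma called 9 of the 10 members higher and 0 lower, where 43.9% of genes were higher and 28.7% lower. The p-values below use the same residual, which has 3 degrees of freedom. They do not measure the spread between cultures or between EB stages. Postn led with 6.49 on the log2 scale (SE 0.34, adjusted p = 0.000109), followed by Dcn with 6.09 (SE 0.25, adjusted p = 8.98e-05) and Lum with 5.89 (SE 0.46, adjusted p = 0.000234). Fn1, already abundant in the ESC libraries, had the smallest called change, 1.17 (SE 0.28, limma adjusted p = 0.0118). Thy1 was the exception, with -0.22 (SE 0.43, adjusted p = 0.66), and it lay below both ESC levels at week 1 and above them at week 3. Of the related lists, all 9 fibril and associated collagens and 16 of 18 mesenchymal transcription factors fitted were also higher in EBs. Fn1 and Thy1 were the members with an RPKM of 1 or more in the ESC libraries.

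Several members sit beside genes of their own family. On chromosome 10, Dcn and Lum lie next to Kera and Epyc, which encode the proteoglycans keratocan and epiphycan, within 203 kb on the plus strand. Dcn reached 423 and Lum 268 RPKM, while Kera never passed 0.373 and Epyc never passed 1.09, each of these 4 maxima being in KO at week 2. On chromosome 13, Ogn lies with Ecm2, Aspn and Omd within 120 kb. All 4 were highest in KO at week 3, at 37.8 for Ogn, 7.86 for Aspn (asporin), 1.62 for Omd (osteomodulin) and 0.751 for Ecm2. Levels in both clusters therefore spanned a wide range between neighbours in the same library.

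**Figure D4:**
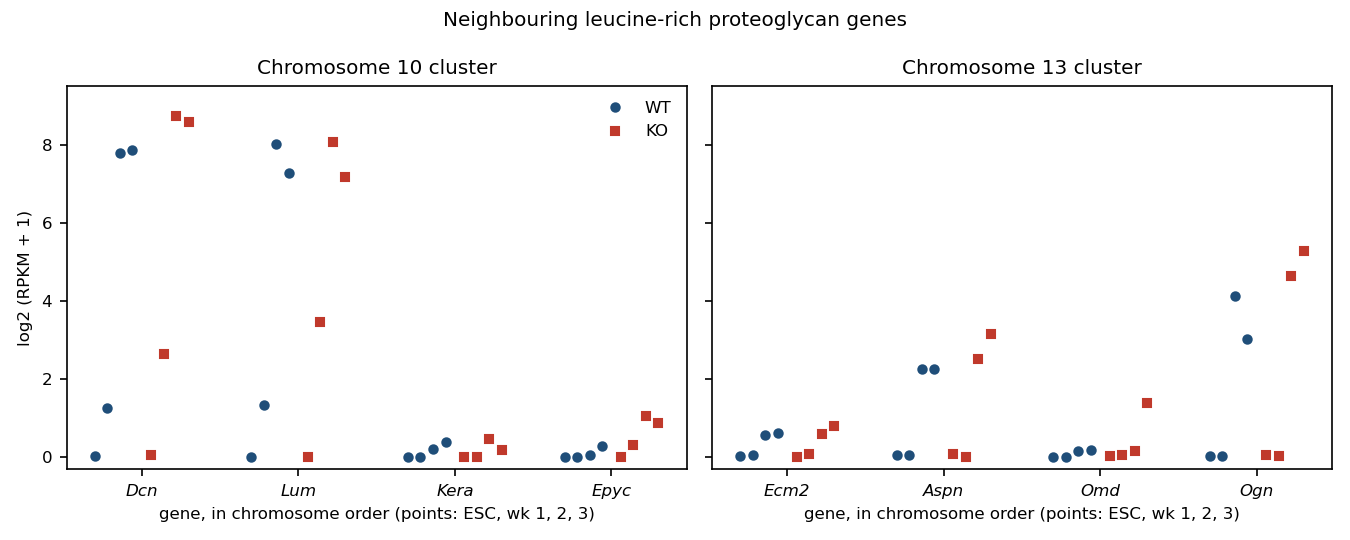
Log2(RPKM + 1) of the 4 neighbouring genes of the chromosome 10 cluster and of the chromosome 13 cluster, in chromosome order, with 1 point per library (ESC and weeks 1, 2 and 3 from left to right, WT before KO). Dcn and Lum stand far above Kera and Epyc at weeks 2 and 3, and Ogn stands above Aspn, Omd and Ecm2 at weeks 2 and 3.

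Genes that act with these members were taken as lists and counted in the same way, at weeks 1, 2 and 3 in turn. Over all genes tested, 8.37%, 10% and 7.65% were higher in KO at these weeks, and 6.22%, 6.42% and 7.69% were lower. These shares apply to the counts of every list below, and counts of 0 or 1 in a list lie near them. Of 15 other genes of elastic fibres and microfibrils, 1 of 9 tested was higher in KO at week 1, 4 of 14 at week 2 and 5 of 15 at week 3, and the lower counts were 0, 1 and 0. Fbln5, which brings elastin to microfibrils, stood at 17.5 in KO and 2.15 in WT at week 3. Ltbp2, a microfibril binding protein, stood at 7.14 and 0.971 at week 3, and Efemp1, a fibulin, at 19.6 and 5.26 at week 2. Of the 4 other lysyl oxidases, none was higher at any of the 3 weeks and 1 was lower at week 2, whereas Lox was 5.03-fold higher at week 3, when Loxl2 stood at 39.0 in KO and 26.4 in WT and Loxl1 at 8.03 and 5.83, both within the limit.

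Among 11 other small leucine-rich proteoglycans, 1 of 1 tested was higher in KO at week 1, 1 of 5 at week 2 and 5 of 7 at week 3, with 0, 1 and 1 lower. Bgn (biglycan) stood at 6.85 in KO and 2.01 in WT at week 1. Aspn stood at 7.86 and 3.75 at week 3, and Fmod (fibromodulin) was lower in KO at week 2, at 2.77 and 5.85. Of 14 matricellular genes, 4 of 10 were higher at week 1, 3 of 12 at week 2 and 5 of 13 at week 3, with 1, 2 and 1 lower. Nov, a CCN family protein, stood at 20.7 and 4.04 at week 2, Wisp1, also of that family, at 14.03 and 3.48 at week 1, and Sparcl1 at 28.8 and 8.83 at week 1.

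Integrins bind fibronectin at the cell surface. Of 11 integrins and other partners of fibronectin, 1 of 10 tested was higher in KO at week 1, 0 of 11 at week 2 and 3 of 11 at week 3, and 0 were lower at any of these weeks, also at week 2, where Fn1 itself was lower. At week 3 the median log2 difference of this list was 0.40, against 0.02 over all genes tested. The integrin chains Itgb6, Itgb3 and Itgb5 stood at 5.59, 8.47 and 36.0 in KO at week 3, against 1.83, 4.86 and 22.1 in WT. Of the 5 genes of platelet-derived growth factors and their other receptor, 1 was higher at week 1, 0 at week 2 and 1 at week 3, with 0 lower. The ligand Pdgfc stood at 12.2 in KO and 3.62 in WT at week 1. Pdgfb stood at 5.63 and 3.42 at week 3, and Pdgfd at 4.80 and 6.44, within the limit.

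Decorin, lumican and osteoglycin bind collagen fibrils, and the next list holds collagens of fibrils and associated collagens. Of 9 genes, 3 of 8 tested were higher in KO at week 1, 0 of 9 at week 2 and 1 of 9 at week 3, with 0 lower at each, and the median log2 difference at week 3 was -0.10, against 0.71 over the 10 members. Col1a1 stood at 31.1 in KO and 12.6 in WT at week 1 and Col5a2, a chain of collagen V, at 21.7 and 12.1. Col12a1, which sits on the surface of collagen fibrils, stood at 9.75 and 4.18 at week 3.

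Of 19 mesenchymal transcription factors, 3 of 14 tested were higher in KO at week 1, 5 of 19 at week 2 and 3 of 18 at week 3, with 0, 3 and 1 lower. Tcf21, which marks fibroblast precursors of several organs, stood at 55.7 in KO and 15.9 in WT at week 2. Foxc1 was lower in KO at week 2, at 2.31 and 5.56, and Meox1 stood at 5.96 and 2.55 at week 3. Of 8 other stromal surface antigens, 1, 2 and 3 were higher at weeks 1, 2 and 3, and 3, 0 and 1 were lower. Ly6a (Sca-1) stood at 37.6 and 1.38 at week 2, Nt5e (CD73) was lower in KO at week 1, at 1.17 and 8.36, and Alcam stood at 19.1 and 5.84 at week 1.

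The members did not form 1 block. Over the 8 libraries the Pearson correlation of log2(RPKM + 1) between 2 members had a median of 0.73 over 45 pairs, ran from -0.20 for Thy1 with Fn1 to 0.998 for Lox with Ogn, and was above 0.8 in 18 pairs. These values describe 8 libraries that share 4 stages, and depth differs between stages. Against the mean profile of all 10, which each member helps to make, Dcn had 0.99, Lum 0.98, Lox 0.94 and Ogn 0.94, while Fn1 had 0.60 and Thy1 0.53. The 4949 genes compared include the members. The other genes most like the mean profile were Sema3f (0.993), Mrc2 (0.992), Rab32 (0.992) and Ccl2 (0.991). They were followed by Lrrc49, Adamts2, Samd9l, Mr1, Col12a1 and Vcam1, the last with 0.988. Mrc2 encodes a receptor that takes up collagen, Adamts2 an enzyme that trims procollagen and Vcam1 a cell adhesion molecule. Whether these 10 genes share a function was not tested, and of them only Adamts2 was also among the 10 nearest with Spearman's rho. Mrc2 stood at 1.40, 2.60, 8.69 and 8.89 RPKM in WT and at 1.67, 3.64, 11.4 and 14.1 in KO from ESCs to week 3.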

How the data were processed

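Per the submitters' notes and the study's methods, RNA-seq reads were mapped to mm9 (TopHat 1.1.4, with Bowtie 0.12.7 and SAMtools 0.1.18), and RefSeq genes were quantified in Cufflinks 1.1.0. The authors deposited RPKM + 1 on a log2 scale, which was converted back to RPKM. The log2 scale was read from the deposited values. All 8 columns were used. Depth was estimated from the steps of RPKM times transcript length in 5676 genes with 1 transcript of 800 to 6000 nt, using GENCODE M1 lengths (mm9), found for 19738 genes. Between 10766 and 12585 genes per library reached an RPKM of 1.

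Folds were taken on RPKM + 1 without rescaling, where at least 1 library of a pair reached an RPKM of 1, with a limit of 1.5-fold, and printed ratios are of RPKM. They carry no p-value, since no group has a replicate. The additive model used limma 3.58.1 in R 4.3.3, with Benjamini-Hochberg adjusted p over all genes fitted, and was tested on simulated data. Intervals came from scipy 1.17.1, run with pandas 2.3.3 in Python 3.11.15. Promoter sequences are those of RefSeq for GRCm38.p6.

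The members and the 17 other lists, 166 of whose 170 entries were found in the table, were chosen with earlier results of these data known. The genes named are the members, up to 3 of each other list with the largest KO to WT difference in EBs at an RPKM of 5 or more, and the 10 most like the mean profile. Uhrf1, Col3a1, Cd3e, Lck, Ptprc, Cd4, and the neighbours on chromosomes 10 and 13 were chosen after their values were seen. So were the comparisons of week 2 with week 1 and of week 3 with week 2. Alternatives were other pseudocounts, filters, scalings, limits and model settings, and leaving out a stage.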

Additional observations from a re-analysis of the deposited data

Results flagged for a closer look

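The direction of change was opposite in the compared groups for 4 members, and none of these differences was tested, since each group has 1 library. The KO to WT ratio of RPKM of Fbn1 was 0.502 at week 1 and 1.68 at week 3. From week 1 to week 2 the RPKM ratio of Fn1 was 1.55 in WT and 0.534 in KO. From week 2 to week 3 the ratio of Lox was 0.479 in WT and 2.09 in KO, and that of Ogn was 0.427 in WT and 1.58 in KO.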

How the results depend on the processing

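The model pairs KO and WT by stage through its stage term. No other pairing was possible, because the columns carry no replicate numbers. Of 216 counts of members recomputed, 12 moved by over 1.5 times. With a 2-fold limit, members lower in KO at week 1 went from 1 to 0 and those higher at week 3 from 7 to 3. Along the courses, the same limit took the fall in WT from week 2 to week 3 from 5 to 2 and the fall in KO from week 1 to week 2 from 1 to 0, and left 2 rises and 0 falls in KO from week 2 to week 3. In ESCs 1 member was lower in KO, in place of 0, with scaling by median ratios, by upper quartile or to an equal RPKM total. With no filter, 2 members fell in WT from ESCs to week 1. Of the 10 genes most like the members, 6 were shared with a pseudocount of 0.1 and 1 with Spearman's rho. In the limma model the genotype terms of Lum and Fbn1 turned to -0.023 and 0.052 without week 1 and that of Thy1 to -0.031 without week 2, and the EB against ESC term of Thy1 turned to 1.11 without week 1 (adjusted p = 0.099). Without ESCs, 2 genes were higher and 4 lower for genotype over all genes, in place of 0, and 0 members. The count of members with an unadjusted p under 0.05 ran from 2 to 5 over all settings. Why these moved was not tested. Scaling to an equal RPKM total shifted the median log2 KO to WT difference of all genes from 0.05 to -0.06 at week 2, with 1008 higher and 1093 lower in place of 1270 and 814, and from 0.02 to -0.10 at week 3. Depth limits Lox, Ogn, Eln and Thy1 at week 1, where KO had 1 to 21 estimated reads and WT 4 to 25.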
